A study of Macaca mulatta with 51 samples.

Results

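The genes described here act on blood clotting, on the anticoagulant brakes of clotting and on the removal of fibrin, and they were followed in subcutaneous abdominal adipose tissue (AT) and gastrocnemius skeletal muscle (SM) of obese rhesus macaques given FGF21, a hormone that lowers body weight. They are 9 genes of the 16033 in the count table, taken by symbol: SERPIND1 (ENSG00000099937), TFPI (ENSG00000003436), THBD (ENSG00000178726), PROS1 (ENSG00000184500), F3 (ENSG00000117525), PLAU (ENSG00000122861), PLAUR (ENSG00000011422), PLAT (ENSG00000104368) and SERPINE2 (ENSG00000135919). SERPIND1 was chosen by its higher level after treatment in AT, so its AT values are given as a description with no test, and it is left out of the counts of AT changes and of AT against SM. F3 starts coagulation and is neither an anticoagulant nor a fibrinolytic gene. SERPINE2 encodes protease nexin-1. No genome of the build used for alignment was at hand, so positions are not given.

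The animals were 10 adult rhesus macaques (Macaca mulatta) of 11 to 22 years, obese but not diabetic, of which 5 were male and 5 were females without ovaries. Their obesity was diet-induced, with high-fat feeding begun 2 or more years earlier. Punch biopsies were taken at 3 time points from the same animals: pre-treatment, post-treatment after 12 weeks of daily subcutaneous native human FGF21 raised from 10 to 1000 µg/kg/day (1 animal was held at 300 µg/kg/day), and washout 16 weeks after the last dose. AT counts covered 10 pre-treatment, 9 post-treatment and 8 washout libraries of 10 animals, and SM counts covered 6, 8 and 7 libraries of 8 animals. There was no untreated group followed over the same weeks, so that treatment, weight change and time cannot be told apart. Total counts per library ranged from 14455195 to 23940980. The tissue labels matched their markers. Levels are given in CPM, which unless stated are counts scaled by library size and TMM normalization factors within each tissue. At pre-treatment the summed level of 9 skeletal muscle markers was 78.7 to 211 CPM in AT and 147600 to 231800 CPM in SM. That of 4 adipocyte markers was 15560 to 32430 CPM in AT and 42.7 to 765 CPM in SM. In SM, the post-treatment library of animal 21189 stood apart, with a median correlation of 0.849 with the other post-treatment libraries (0.898 to 0.946 for the others), the lowest summed muscle marker level of all SM libraries at 53910 CPM and the highest summed fibroblast marker level at 26770 CPM. In AT the lowest such correlation was 0.949, for the post-treatment library of animal 20275, which also had the highest summed macrophage marker level, at 5636 CPM.

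Coagulation begins when tissue factor (F3) on cells outside the vessel lining binds factor VII and leads to thrombin, which cuts fibrinogen to fibrin. TFPI blocks the tissue factor complex, thrombomodulin (THBD) turns thrombin toward activating protein C, protein S (PROS1) is the cofactor of activated protein C, and heparin cofactor II (SERPIND1) inhibits thrombin, most efficiently when bound to dermatan sulfate of the tissue matrix. Fibrin is removed by plasmin, made from plasminogen by tissue-type (PLAT) and urokinase-type (PLAU) activators, of which the latter works bound to its receptor PLAUR, and SERPINE2 inhibits several of these proteases. Plasmin also acts on matrix remodelling in adipose tissue.

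In AT, PLAU, TFPI and THBD rose between pre- and post-treatment, and the largest change of any tested gene among the 9 came at washout, when F3 rose above both earlier time points. DE means here that edgeR's quasi-likelihood test gave an adjusted p under 0.05 and that the log2 fold change exceeded 0.26 in size. Post-treatment against pre-treatment, 3 of the 8 tested members were DE, all 3 higher, where 15.5% of all 13367 genes tested were DE. At washout against post-treatment 4 of 8 were DE, 2 higher and 2 lower, where 35.4% of all genes were, so that the members' share was little above the background. At washout against pre-treatment 1 of 8 was DE, where 20.5% of all genes were. The median log2 fold change over the 8 members was 0.28, -0.30 and 0.21 in these comparisons, beside 0.03, -0.0021 and -0.02 over all genes. The comparisons share libraries (the pre-treatment libraries serve in 2 of them, as do the others), so that their values are given side by side and not as independent results. In bulk tissue a higher level can come from more cells of a type or from more RNA per cell, and the 2 cannot be told apart.

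**Figure D1:**
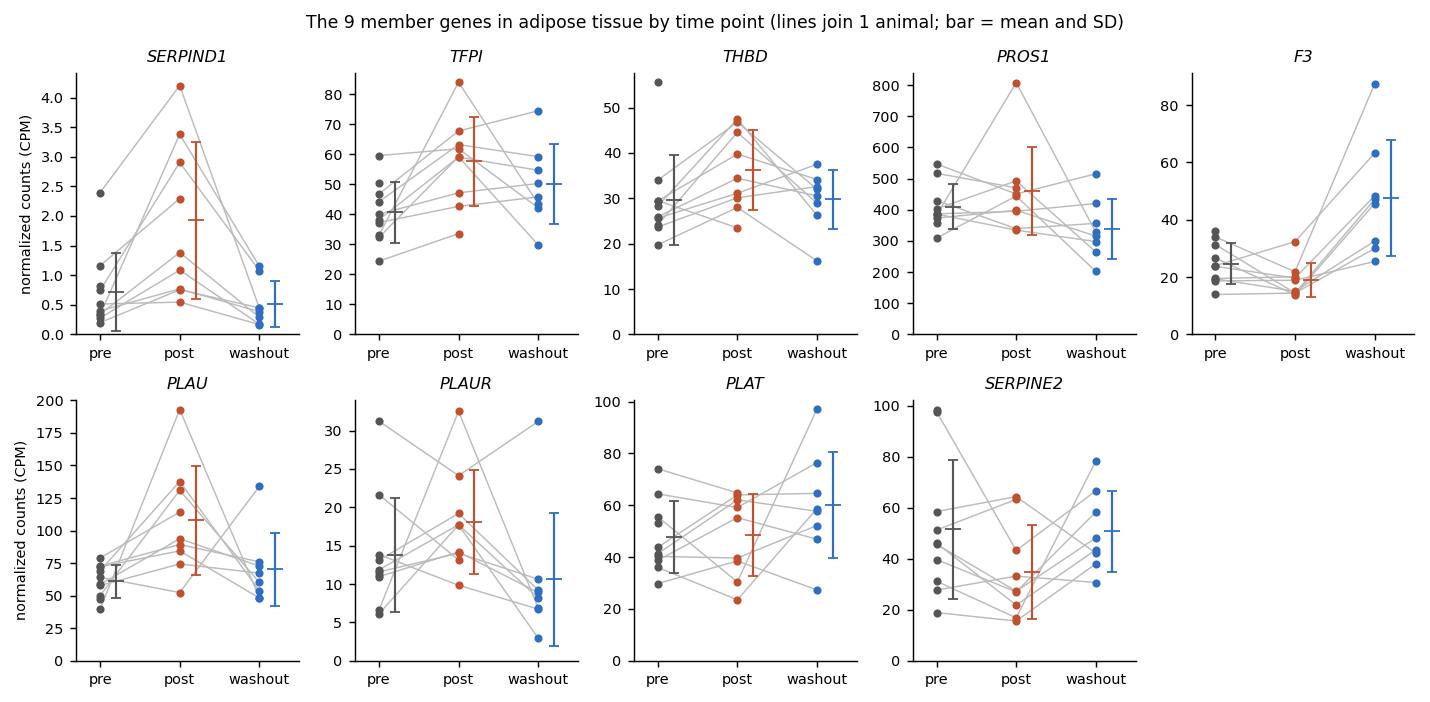
Normalized counts (CPM, linear axis from 0) of the 9 genes in AT at each time point (n = 10 pre, 9 post, 8 washout). Each point is 1 library, grey lines join libraries of 1 animal, and the bars give mean and SD. SERPIND1 was highest post-treatment and F3 at washout in each of the 8 animals sampled at all 3 time points.

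SERPIND1, whose protein circulates mainly from the liver, was detected at a low level in every AT library. Its AT level was 0.201, 0.457 and 2.40 CPM (lowest, median and highest of 10) pre-treatment, 0.546, 1.38 and 4.203 CPM (of 9) post-treatment and 0.168, 0.417 and 1.15 CPM (of 8) at washout. These levels rest on 4 to 55 reads per library pre-treatment, 11 to 90 post-treatment and 3 to 23 at washout. The ranges of the time points overlapped, with animal 26292 highest both pre- and post-treatment. Within animals, however, the post-treatment level was above the pre-treatment level in 9 of 9, by a mean of 1.36 ± 0.84 on the log2 CPM scale (SD, n = 9), which is the feature that selected the gene. The difference between animals was wide, from 0.07 in animal 23004 to 3.0006 in animal 24849. The washout level lay below the post-treatment level in 8 of 8 animals, by a mean of 1.56 ± 0.75 (SD, given as the size of the fall), and against pre-treatment it was higher in 3 of 8 and lower in 5 of 8 (mean difference -0.15 ± 1.17). The fitted log2 fold changes were 1.42 ± 0.29 (SE) post-treatment against pre-treatment, -1.74 ± 0.33 at washout against post-treatment and -0.32 ± 0.37 at washout against pre-treatment, and the last of these changed sign to 0.20 without animal 26292. For 6 animals the pre- and post-treatment libraries both carried identifiers of the last of 3 number series, a possible batch whose meaning is unknown. In these the difference was positive in 6 of 6 with a mean of 1.75 ± 0.72. In the middle series it was positive in 2 of 2 with a mean of 0.50 ± 0.60. The gene was chosen by this same difference, so both values are only a description. The summed level of 8 hepatocyte markers was 407 to 1549 CPM pre-treatment and 319 to 2678 CPM post-treatment, with 2 of the 8 (FGA and AHSG) without a read at either time point. Of the 5 tested, 0 were DE between these time points, where 15.5% of all genes were. At washout against post-treatment 2 of the 5, SERPINA1 and TF, were lower, where 17.8% of all genes were. The part of liver-type genes in the SERPIND1 values was not tested.

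Of the plasminogen activation genes, PLAU rose after treatment. PLAU was at 39.6, 61.4 and 79.0 CPM (lowest, median, highest of 10) pre-treatment, 52.4, 93.7 and 193 CPM (of 9) post-treatment and 48.3, 63.8 and 134 CPM (of 8) at washout. The post-treatment libraries reached well above the pre-treatment ones, although the ranges overlapped, and the level was higher in 8 of 9 animals. The log2 fold change post-treatment against pre-treatment was 0.78 ± 0.24 (SE, adjusted p = 0.0355), with mean levels of 61.1 ± 12.7 CPM (SD, n = 10) and 108 ± 41.9 CPM (n = 9). This call was narrow: without any 1 of animals 20261, 20275, 21189, 22130, 24849 and 26292 the log2 fold change stayed between 0.57 and 0.83 but the adjusted p was 0.0558 to 0.110, and over all alternatives it lay between 0.00931 and 0.110. Of the animals with both libraries in the last identifier series, 6 of 6 were higher post-treatment, by a mean of 0.81 ± 0.78. In the middle series only 1 of 2 was higher, with a mean difference of 0.12 ± 0.58. At washout against post-treatment PLAU did not pass (log2 fold change -0.61 ± 0.25, adjusted p = 0.0658, lower in 7 of 8 animals). The exception was animal 23004, whose washout library had the highest washout level, 134 CPM, and without that animal the log2 fold change was -0.87 with an adjusted p of 0.00399. It was -0.39 (adjusted p = 0.185) without animal 20275 and -0.37 (adjusted p = 0.185) with the identifier series as a covariate.

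PLAUR, the receptor that holds urokinase at the cell surface, fell at washout. It was highest post-treatment in 6 of the 8 animals sampled at all 3 time points and lowest at washout in 6 of 8. Its level was 6.12, 11.7 and 31.2 CPM (lowest, median, highest of 10) pre-treatment, 9.84, 17.7 and 32.5 CPM (of 9) post-treatment and 2.96, 8.54 and 31.2 CPM (of 8) at washout. It was lower at washout than post-treatment in 7 of 8 animals, and the fitted change was -0.98 ± 0.28 on the log2 scale (SE, adjusted p = 0.0102). All ranges overlapped, and the libraries of animal 23004 were the highest pre-treatment and at washout. The change post-treatment against pre-treatment did not pass (0.49 ± 0.26, adjusted p = 0.198, higher in 6 of 9 animals), and it was 0.25 (adjusted p = 0.508) without animal 20275. Across the 27 AT libraries, which share animals and biopsies, PLAUR had a Pearson r of 0.81 with the mean log2 CPM of 12 macrophage markers. This was the highest such r among the 9 genes, and PLAU had 0.66. With the mean of the 4 adipocyte markers measured, the r was -0.66 for PLAU and -0.47 for PLAUR. All 12 macrophage markers fell at washout against post-treatment, where 17.8% of all genes fell. Post-treatment against pre-treatment 4 of 12 (AIF1, C1QA, C1QB and C1QC) rose, where 6.98% of all genes rose. The summed macrophage marker level was 674 to 2494 CPM pre-treatment, 1016 to 5636 CPM post-treatment and 415 to 2258 CPM at washout, with no marker at 0. The part of either cell type in the PLAU and PLAUR changes was not tested.

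PLAT, the tissue-type activator released mainly by endothelium, passed in none of the 3 AT comparisons. It was at 29.8, 42.6 and 74.1 CPM (lowest, median, highest of 10) pre-treatment, 23.5, 55.2 and 64.8 CPM (of 9) post-treatment and 27.3, 58.2 and 97.1 CPM (of 8) at washout. The log2 fold change was 0.07 ± 0.17 (SE, adjusted p = 0.813) post-treatment against pre-treatment and 0.43 ± 0.17 (adjusted p = 0.0909) at washout against pre-treatment, where it was higher in 7 of 8 animals. That last comparison depended on the method, since limma voomWithQualityWeights gave 0.44 with an adjusted p of 0.0166 and a range of 0.00760 to 0.297 was found over the alternatives.

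SERPINE2, an inhibitor of thrombin, urokinase and plasmin that stays at the cell surface and in the matrix, was lowest post-treatment in 6 of the 8 animals sampled at all 3 time points. Its level was 18.9, 45.9 and 98.3 CPM (lowest, median, highest of 10) pre-treatment, 15.6, 27.3 and 64.4 CPM (of 9) post-treatment and 30.7, 45.8 and 78.3 CPM (of 8) at washout. It rose at washout against post-treatment (log2 fold change 0.75 ± 0.23, SE, adjusted p = 0.0175, higher in 6 of 8 animals), while the change post-treatment against pre-treatment did not pass (-0.42 ± 0.22, adjusted p = 0.184, lower in 6 of 9 animals). The rise was lost without animal 21189 (0.52, adjusted p = 0.0744) and without animal 24849 (0.70, adjusted p = 0.0521), and the adjusted p ran from 0.00333 to 0.181 over the alternatives. With limma voomWithQualityWeights the post-treatment change was -0.62 with an adjusted p of 0.0293, against 0.354 at most over the alternatives.

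Of the anticoagulant genes, TFPI and THBD rose after treatment. TFPI, the inhibitor of the tissue factor complex, was at 24.5, 39.2 and 59.6 CPM (lowest, median, highest of 10) pre-treatment, 33.6, 59.2 and 84.1 CPM (of 9) post-treatment and 29.9, 48.1 and 74.5 CPM (of 8) at washout. It was higher post-treatment in 9 of 9 animals, and the fitted change was 0.54 ± 0.13 on the log2 scale (SE, adjusted p = 0.0130), although the ranges of the groups overlapped. This call held under all 24 alternatives run for it, with an adjusted p of 0.00232 to 0.0470. An exact sign-flip permutation test of paired differences, also among the 24, was judged by its unadjusted p, 0.00391. Within the last identifier series TFPI was higher in 6 of 6 animals (mean 0.55 ± 0.44), and within the middle series in 2 of 2 (mean 0.33 ± 0.19). TFPI did not pass at washout against post-treatment (-0.29 ± 0.14, adjusted p = 0.0996) or against pre-treatment (0.25 ± 0.14, adjusted p = 0.198). Of the 9 genes it had the most negative r with the mean of the 4 adipocyte markers measured, -0.80 over 27 libraries. Of those 4, PLIN1 and LEP fell post-treatment, where 8.49% of all genes fell. The summed level of the 4 was 15560 to 32430 CPM pre-treatment and 9439 to 28010 CPM post-treatment, and their part in the TFPI change was not tested.

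THBD, the endothelial receptor for thrombin, was at 19.8, 27.1 and 55.6 CPM (lowest, median, highest of 10) pre-treatment, 23.5, 34.4 and 47.5 CPM (of 9) post-treatment and 16.2, 31.3 and 37.5 CPM (of 8) at washout. It was higher post-treatment in 8 of 9 animals, and the log2 fold change was 0.42 ± 0.12 (SE, adjusted p = 0.0234), while the highest of all levels was in a pre-treatment library, that of animal 19832, which had no post-treatment library. The adjusted p was 0.0532 to 0.0844 without 1 of animals 20261, 20275, 21189 and 22130, with a log2 fold change of 0.37 to 0.43, and 0.249 without the animal term (log2 fold change 0.29). Within the last identifier series THBD was higher in 6 of 6 animals (mean 0.47 ± 0.15), but within the middle series in 1 of 2 (mean 0.01 ± 0.48). None of the 11 endothelial markers tested was DE post-treatment against pre-treatment, where 15.5% of all genes were. Their summed level was 1004 to 1949 CPM pre-treatment and 903 to 2148 CPM post-treatment. At washout against post-treatment THBD did not pass (-0.30 ± 0.12, adjusted p = 0.0592), but it did without animal 20456, 21866 or 23004, with an adjusted p of 0.0196 to 0.0393 and a log2 fold change of -0.35 to -0.40, and with the identifier series as a covariate the change was -0.16 (adjusted p = 0.316).

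PROS1, the cofactor of activated protein C, fell at washout against post-treatment. It was at 309, 387 and 547 CPM (lowest, median, highest of 10) pre-treatment, 335, 444 and 808 CPM (of 9) post-treatment and 202, 322 and 515 CPM (of 8) at washout. The log2 fold change at washout against post-treatment was -0.43 ± 0.15 (SE, adjusted p = 0.0317), but only 5 of 8 animals were lower, and the library of animal 20275 stood alone at the top of the post-treatment group. Without that animal the log2 fold change was -0.30 with an adjusted p of 0.0938, and without animals 21189, 21866 and 22130 in turn the adjusted p was 0.0946, 0.0533 and 0.113. Over all alternatives it was 0.0203 to 0.113. Of the 3 animals with both libraries in the last identifier series 1 was higher at washout (mean -0.35 ± 0.54). Neither the change post-treatment against pre-treatment (0.14 ± 0.14, adjusted p = 0.519) nor that at washout against pre-treatment (-0.29 ± 0.15, adjusted p = 0.182) passed.

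F3, tissue factor, had the largest log2 fold change and the smallest adjusted p of the tested members, and this change came after treatment had ended. Its level was 13.9, 23.9 and 36.0 CPM (lowest, median, highest of 10) pre-treatment, 13.9, 18.9 and 32.4 CPM (of 9) post-treatment and 25.5, 46.4 and 87.4 CPM (of 8) at washout. Washout was the highest of the 3 time points in 8 of 8 animals, while the group ranges still overlapped. The log2 fold change was 1.25 ± 0.15 (SE, adjusted p = 1.27e-05) at washout against post-treatment and 0.95 ± 0.15 (adjusted p = 0.000123) at washout against pre-treatment, with mean levels of 24.7 ± 7.22, 19.0 ± 5.84 and 47.5 ± 20.2 CPM (SD, n = 10, 9 and 8) in time order. Both calls held under all 24 alternatives, with log2 fold changes of 1.13 to 1.37 and 0.87 to 1.06. The adjusted p-values were 2.84e-13 to 0.000986 and 6.58e-08 to 0.00201. An exact sign-flip permutation test of paired differences, also among the 24, was judged by its unadjusted p, 0.00781 in both comparisons. Within the last identifier series F3 was higher at washout in 3 of 3 animals in both comparisons. Post-treatment against pre-treatment it did not pass (-0.30 ± 0.14, adjusted p = 0.152). Of the 11 endothelial markers 6 rose at washout against each of the earlier time points, and their summed level reached 1087 to 3011 CPM. Of all genes 17.6% rose at washout against post-treatment and 12.5% against pre-treatment. Of 7 mural (vessel wall) markers 3 rose at washout against post-treatment and 0 against pre-treatment. Over 27 libraries F3 had an r of 0.72 with the mean of the endothelial markers, 0.66 with the mural and -0.74 with the macrophage markers. The part of these cell types in the F3 change was not tested.

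**Figure D2:**
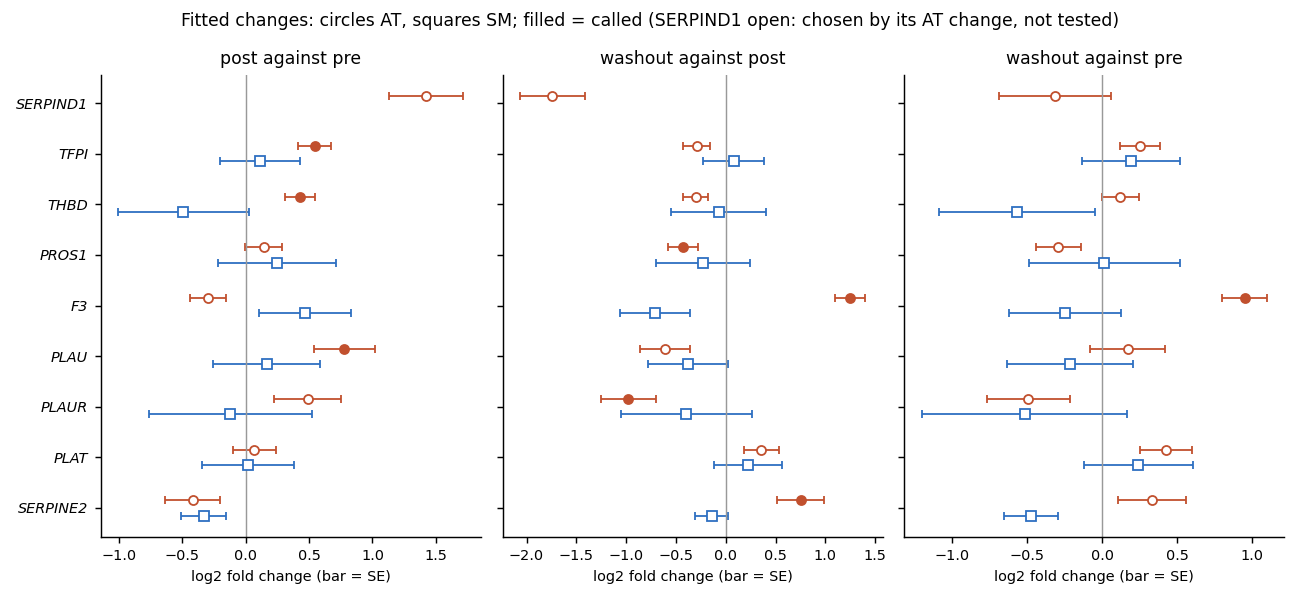
Fitted log2 fold changes with SE (horizontal axis) of each gene in the 3 comparisons, in AT (circles) and SM (squares). Filled symbols passed the test. In AT these were PLAU, TFPI and THBD post-treatment against pre-treatment, F3, SERPINE2, PLAUR and PROS1 at washout against post-treatment, and F3 at washout against pre-treatment, and no SM symbol is filled. SERPIND1 was below the count filter in SM and is drawn open in AT because it was chosen by its AT change.

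Other genes of these pathways in AT were counted from lists. Of 15 further genes of plasminogen activation, 11 were tested, and 2 were DE post-treatment against pre-treatment, 5 at washout against post-treatment (1 up and 4 down) and 0 at washout against pre-treatment (by edgeR), where 15.5%, 35.4% and 20.5% of all genes were, so that the first 2 shares lay near the background. MRC2, a collagen receptor that associates with the urokinase receptor, rose post-treatment (log2 fold change 0.38 ± 0.11, SE, adjusted p = 0.0331) and fell at washout (-0.51 ± 0.12, adjusted p = 0.00289). ANXA2, a cell surface receptor for PLAT and plasminogen, fell post-treatment in 9 of 9 animals, from a mean of 3703 to 2895 CPM (-0.38 ± 0.11, adjusted p = 0.0324). At washout against post-treatment the broad protease inhibitor A2M (-0.74 ± 0.21, adjusted p = 0.0114) and SERPINI1, an inhibitor of PLAT best known from neurons (-0.79 ± 0.25, adjusted p = 0.0190), fell, and SERPINA5, the protein C inhibitor, rose (0.68 ± 0.25, adjusted p = 0.0384). S100A10, the partner of annexin A2 at the cell surface, fell in 8 of 8 animals, from a mean of 686 to 519 CPM (-0.43 ± 0.10, adjusted p = 0.00255). The median log2 fold change of the 11 at washout against post-treatment was -0.15.

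Of 10 tested genes on a list of other anticoagulants, 1, 3 and 2 were DE in the 3 comparisons in the same order, no more than the shares of all genes just given. TYRO3, a receptor of protein S, was lower post-treatment in 9 of 9 animals (-0.64 ± 0.14, SE, adjusted p = 0.00757, mean level 18.1 against 11.6 CPM). MERTK, another protein S receptor and a gene of phagocytes, fell at washout against post-treatment (-0.51 ± 0.14, adjusted p = 0.00814). SERPINC1 (antithrombin) and PROZ (protein Z) rose at washout against post-treatment in 8 of 8 animals (log2 fold changes 1.58 ± 0.31 and 1.79 ± 0.32), but both were low in AT, with means of 0.212 and 0.791 CPM post-treatment and 0.689 and 2.92 CPM at washout.

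Of the 6 tested genes that build dermatan sulfate, the cofactor of SERPIND1, 0 were DE post-treatment against pre-treatment (by edgeR, median log2 fold change -0.01). At washout 2 were lower than post-treatment and 3 lower than pre-treatment, where 17.8% and 7.96% of all genes were. They were the epimerases DSE (-0.52 ± 0.12 and -0.42 ± 0.12) and DSEL (-0.62 ± 0.16 and -0.68 ± 0.16), and, against pre-treatment, the chain polymerizing factor CHPF (-0.42 ± 0.13, adjusted p = 0.0257).

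Of 10 tested procoagulant factor genes, 1, 2 and 3 were DE in the 3 comparisons, again beside 15.5%, 35.4% and 20.5% of all genes. F12 rose post-treatment in 9 of 9 animals (1.22 ± 0.32, SE, adjusted p = 0.0157), from a mean of 0.177 to 0.428 CPM, so that it rested on few reads. KLKB1, plasma kallikrein, rose at washout from 1.25 to 4.44 CPM (1.73 ± 0.24 against post-treatment, adjusted p = 4.22e-05) in 8 of 8 animals. F13A1, the fibrin crosslinking transglutaminase that is made by macrophages, was lower at washout than at either earlier time point in 8 of 8 animals (-0.82 ± 0.21 and -1.36 ± 0.21), and prothrombin (F2) rose against pre-treatment from 0.145 to 0.413 CPM (1.51 ± 0.43). Of 3 protease-activated receptor genes, F2RL2 rose post-treatment (0.65 ± 0.20, adjusted p = 0.0358) and fell at washout (-0.62 ± 0.21, adjusted p = 0.0261). F2RL3, a thrombin receptor of platelets, rose at washout against post-treatment (1.01 ± 0.33), from a low mean of 0.758 to 1.41 CPM. Its pre-treatment mean was 1.38 CPM, and washout against pre-treatment did not pass by edgeR (0.22 ± 0.31, adjusted p = 0.647). All 5 tested erythroid and platelet markers also rose at washout against post-treatment, where 17.6% of all genes rose. Their summed level was 457 to 7645 CPM post-treatment and 460 to 12010 CPM at washout, and the part of blood in these changes was not tested.

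The genes whose pattern over the 27 AT libraries was most like each member were taken by Pearson r of log2 CPM among 12138 genes, as a description over libraries that share animals and time points. For SERPIND1 they were CAT (0.82, and 0.81 after removal of the time point means), ASB8 (0.81 and 0.70), ABCG1 (0.80 and 0.67), FAM161B (0.78 and 0.61) and FAM149B1 (0.78 and 0.65), so that the likeness of the last 4 was lower without the time pattern by which SERPIND1 was chosen. PLAUR had the highest values, with CAPG (0.94) and TUBA1C (0.93). The pair nearest to PLAU was CD22 (0.88) and M6PR (0.86), that nearest to F3 was PHF21A (0.88) and CASC1 (0.87), and that nearest to PROS1 was LRRFIP1 (0.85) and TXN (0.82). TFPI was most like IFI16 (0.84) and RUFY1 (0.83), SERPINE2 most like the matrix genes BGN (0.82) and COMP (0.71), PLAT most like PLCD1 (0.77) and ZNF57 (0.72), and THBD most like PAFAH1B3 (0.75) and ATXN7L3 (0.72). Among the members themselves the most positive r was that of PLAU with its receptor PLAUR (0.61, and 0.57 after removal of the time point means) and the most negative that of PLAUR with F3 (-0.70 and -0.59). SERPIND1 had an r between -0.34 and 0.38 with every other member.

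In SM, none of the 8 tested members was DE in any comparison. The counts were 0 of 8 by edgeR, by limma voomWithQualityWeights and by DESeq2 in all 3 comparisons, beside 0.0%, 0.19% and 0.0634% of all 12617 genes DE post-treatment against pre-treatment, at washout against post-treatment and at washout against pre-treatment by edgeR. At an unadjusted p under 0.05 by edgeR the members numbered 0, 0 and 1, beside 410, 2181 and 1691 of all 12617 genes. The last was SERPINE2 (log2 fold change -0.48 ± 0.18, SE, adjusted p = 0.299, lower in 5 of 6 animals). The SE of the post-treatment change was 0.42 for PLAU, 0.32 for TFPI and 0.52 for THBD in SM, and 0.24, 0.13 and 0.12 in AT. For SERPINE2 it was smaller in SM (0.18) than in AT (0.22). Both libraries were at hand for 6 animals in SM and 9 in AT, which also bears on the SE. The changes of PLAU, TFPI and THBD seen in AT were each smaller than 2 SEs of the same gene in SM. When the identifier series was a covariate, F3 fell at washout against post-treatment in SM (-1.35, adjusted p = 0.0124), beside 0.665 at most over the alternatives.

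**Figure D3:**
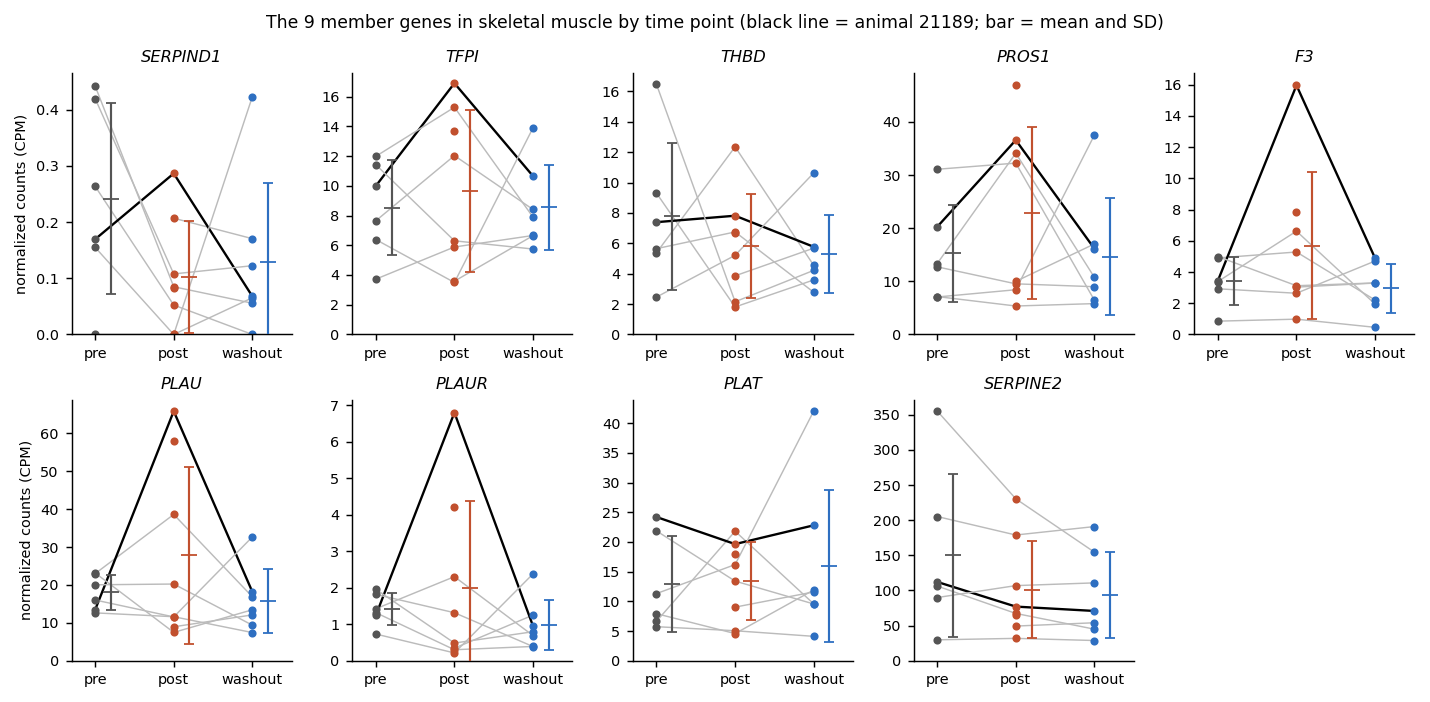
Normalized counts (CPM, linear axis from 0) of the same genes in SM at each time point (n = 6 pre, 8 post, 7 washout). Points, lines and bars are as in the AT plot, and the black line is animal 21189, whose post-treatment library was the highest for PLAU (65.8 CPM), PLAUR (6.79 CPM) and F3 (15.96 CPM).

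A few post-treatment SM libraries carried the high values. PLAU was at 7.48, 15.9 and 65.8 CPM (lowest, median, highest of 8) post-treatment, against 12.6, 18.0 and 23.2 CPM (of 6) pre-treatment and 7.44, 13.5 and 32.7 CPM (of 7) at washout. The libraries of animals 21189 and 21866 were the 2 highest post-treatment for PLAU, PLAUR and F3, and they were also the 2 with the highest summed fibroblast marker levels, 26770 and 19600 CPM, where the group started at 328 CPM. The part of connective tissue in these values was not tested. Without animal 21189 the log2 fold change post-treatment against pre-treatment went from 0.16 to -0.22 for PLAU, from 0.47 to 0.12 for F3 and from -0.12 to -0.79 for PLAUR, with 0 of 8 members DE by edgeR either way.

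In SM the ranges of every member overlapped between the time points. F3 was at 0.853, 3.42 and 4.99 CPM pre-treatment, 0.981, 4.203 and 15.96 CPM post-treatment and 0.457, 3.29 and 4.89 CPM at washout, with animal 19832 lowest each time. SERPINE2 was at 29.8, 109 and 355 CPM pre-treatment, 31.9, 72.2 and 230 CPM post-treatment and 28.8, 70.9 and 191 CPM at washout, with animal 20275 lowest each time. SERPIND1 had at most 9 reads in any SM library and none in 4 of 21, and it was below the filter for testing. THBD was at 2.46 to 16.5 CPM, 1.81 to 12.4 CPM and 2.78 to 10.6 CPM in time order, TFPI at 3.72 to 11.98, 3.496 to 16.9 and 5.75 to 13.9 CPM, PROS1 at 7.05 to 31.1, 5.36 to 47.0 and 5.81 to 37.5 CPM, and PLAT at 5.74 to 24.2, 4.58 to 21.8 and 4.11 to 42.0 CPM.

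Whether AT and SM changed differently was tested with an interaction term for the 12322 genes that passed the filter in both tissues, with a call at an adjusted p under 0.05. For the change post-treatment against pre-treatment 0 of 8 members passed by edgeR, where 0.0487% of all genes passed. The rises of PLAU, TFPI and THBD in AT are thus not shown to be particular to AT. At an unadjusted p under 0.05 by edgeR the members numbered 1 (F3), beside 1306 of all 12322 genes. For THBD the difference of the changes, AT minus SM, was 0.88 ± 0.47 (SE, adjusted p = 0.520), for PLAU 0.57 ± 0.47 and for TFPI 0.39 ± 0.32. For the change at washout against post-treatment 2 of 8 passed, where 22.7% of all genes did: F3 (1.95 ± 0.35, adjusted p = 0.000173) and SERPINE2 (0.89 ± 0.31, adjusted p = 0.0377). For the change at washout against pre-treatment 1 of 8 passed, where 17.5% of all genes did, again F3 (1.16 ± 0.36, adjusted p = 0.0221). F3 at washout against post-treatment kept its call under all 20 alternatives run for it (adjusted p 8.81e-07 to 0.00200). The SERPINE2 difference lost its call without any 1 of animals 19832, 21189, 21866, 23004, 24849 and 26292 (0.67 to 0.89, adjusted p 0.0526 to 0.133), and its adjusted p was 0.0102 to 0.461 over the alternatives. The F3 difference at washout against pre-treatment lost it without animal 19832, 20275 or 23004 (1.04 to 1.09, adjusted p 0.0568 to 0.0856, and 0.000171 to 0.151 over the alternatives). With library size alone as the scaling the median over all genes moved from 0.03 to 0.25 and from -0.01 to 0.23 in the washout comparisons, and the F3 differences, 2.20 and 1.40, still lay above that shift.

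At pre-treatment 8 of 8 tested members differed in level between AT and SM, where 77.1% of all 13662 genes tested did, with 7 higher in AT and 1 higher in SM. For this comparison libraries of both tissues were scaled together, so the CPM differ from those above. PROS1 had the largest difference of the members, with 244, 305 and 421 CPM (lowest, median, highest of 10) in AT and 9.22, 17.6 and 42.8 CPM (of 6) in SM, and a log2 difference of 3.93 ± 0.41 (SE, adjusted p = 1.16e-10). SERPINE2 was the member higher in SM, at 39.9, 151 and 459 CPM against 14.9, 36.1 and 76.3 CPM in AT (-2.12 ± 0.38, adjusted p = 6.74e-06), and was lower in AT in 5 of the 6 animals with both tissues. F3, TFPI, PLAUR and PROS1 did not overlap between the tissues, where 47.2% of all genes did not. The log2 fold change was 2.12 ± 0.35 for F3, 1.53 ± 0.24 for TFPI, 2.47 ± 0.54 for PLAUR, 1.22 ± 0.34 for THBD, 1.17 ± 0.38 for PLAT and 0.98 ± 0.36 for PLAU. SERPIND1, not tested here because its AT level took part in its choice, had a median of 0.360 CPM in AT and 0.294 CPM in SM, and its ranges overlapped. The PLAU difference did not pass without animal 21189 (0.82, adjusted p = 0.0533) or with the identifier series as a covariate (0.56, adjusted p = 0.178), where the alternatives began at 0.000653. Scaling decided part of these sizes, since the median over all genes was 0.16 with TMM and 0.90 with library size alone, but SERPINE2 stayed lower in AT (-1.39) and F3 higher (2.85) with library size alone.

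**Figure D4:**
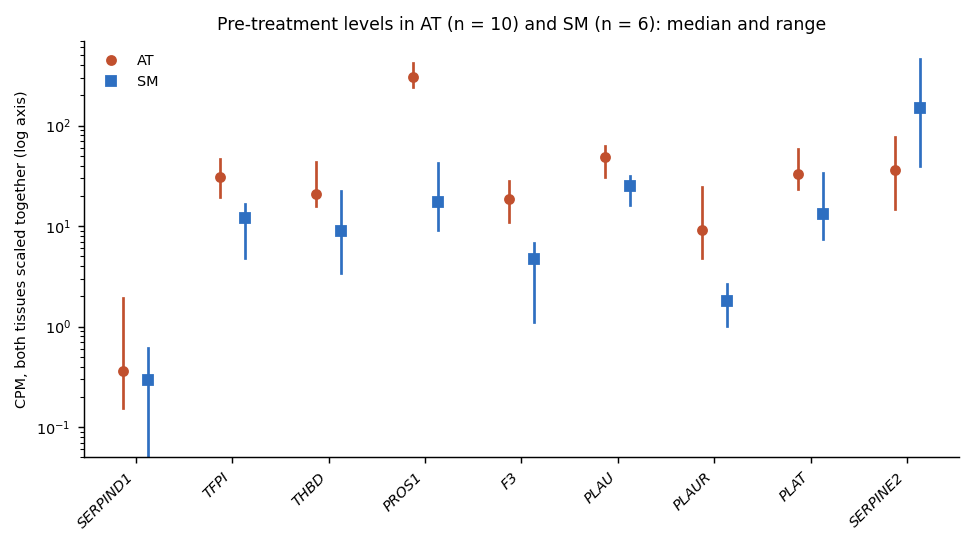
Pre-treatment levels (CPM with both tissues scaled together, log axis) in AT (circles, n = 10) and SM (squares, n = 6). Symbols are medians and lines run from the lowest to the highest library, cut at the bottom of the axis for SERPIND1 in SM, whose lowest library was at 0. The median of SERPINE2 is higher in SM and those of the other genes are higher in AT, while the ranges of SERPIND1, SERPINE2, PLAT, PLAU and THBD overlap.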

How the data were processed

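The authors used STAR to align paired reads of stranded mRNA libraries to MacaM, a rhesus genome build, and deposited raw read counts per gene. These deposited counts covered 48 libraries of 51 labelled samples. The other 3, all SM, were not analysed here. Of 16103 entries, 70 that repeated a gene were dropped. The 9 members and all lists were chosen with earlier results of these data known. Members were named in every comparison. A further gene of the naming rule is not reported here and was left out of its list. From 5 coagulation lists, genes DE in AT post-treatment against pre-treatment were named, plus at most 4 per list DE only in another comparison, largest changes first. The genes most alike in pattern were 5 for SERPIND1 and 2 for each other member, among genes of 1 CPM or more on average.

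Per tissue, genes were tested that reached 0.5 CPM, here by library size alone, in 10% or more of libraries. The test was that of edgeR 4.0.16 in R 4.3.3 (TMM normalization, robust quasi-likelihood test, time point and animal in the model, 1 fit per tissue, Benjamini-Hochberg adjustment over all genes tested). Tissues were compared in joint fits with animal. log2 CPM used a prior count of 2. Libraries were paired by the animal in the labels: after removal of time point means the median r of libraries was 0.352 within animals and -0.0354 between animals in AT, and 0.279 and -0.0464 in SM. The fits were tested on simulated data. Cell type and pathway lists came from general knowledge. Limma 3.58.1 (voomWithQualityWeights), DESeq2 1.42.0, other scalings, filters and covariates, and each animal left out in turn were alternatives. Another was an exact sign-flip permutation test of paired differences, which was judged by its unadjusted p. edgeR's earlier quasi-likelihood method and changes within identifier series were added after seeing the data. Counting error weighs most on genes with few reads, such as SERPIND1. How much of the spread came from counting and how much from differences between animals was not separated. Python 3.11.15, NumPy 2.4.6, pandas 2.3.3, SciPy 1.17.1 and matplotlib 3.10.9 were also used.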

Additional observations from a re-analysis of the deposited data

Results flagged for a closer look

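In 6 of 51 groups of 6 to 10 libraries tested for it, 1 library lay far from the others of its group, where chance gives about 1 group in 20. The groups share libraries across genes and animals across time points, so that they are not independent. In AT these were PLAU at washout in animal 23004 (133.9 CPM, the nearest at 76.03 CPM), THBD pre-treatment in animal 19832 (55.59 CPM, the nearest at 34.01 CPM), THBD at washout in animal 26292 (16.22 CPM, the nearest at 26.27 CPM) and PROS1 post-treatment in animal 20275 (807.7 CPM, the nearest at 492.6 CPM). In SM they were F3 pre-treatment (0.8525 CPM, the nearest at 2.926 CPM) and F3 at washout (0.4568 CPM, the nearest at 1.945 CPM), both in animal 19832.

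Changes differed between AT and SM by the interaction test, with the difference given as AT minus SM on the log2 scale, for F3 at washout against post-treatment (1.9484), for SERPINE2 at washout against post-treatment (0.8858) and for F3 at washout against pre-treatment (1.1602).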

How the results depend on the processing

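Of 330 recomputed counts of DE genes, 274 stayed within 1.5 times the value given, and the cause of the 56 that did not was not tested unless stated. Leaving out 1 animal at a time gave 1 to 3 members and 805 to 2214 genes in all DE in AT post-treatment against pre-treatment (3 and 2068 with all animals), and 2 to 6 members at washout against post-treatment (4). For differences between AT and SM it gave 1 to 2 members (2) at washout against post-treatment and 0 to 1 (1) at washout against pre-treatment, and in SM 0 to 38 genes (24) at washout against post-treatment and 0 to 16 genes (8) at washout against pre-treatment. Without only the pre-treatment AT library of animal 20275, 1162 genes were DE in AT post-treatment. With only the 2 time points compared, 2 members in AT and 2 genes in SM were DE at washout against post-treatment, and 4 members in AT at washout against pre-treatment, where limma gave 3 and library size alone 2.

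At washout in SM, DESeq2 called 359 genes against post-treatment and 179 against pre-treatment, the identifier series as a covariate 2650 and 1355 (and 1 member, F3, against post-treatment), and library size alone 4 and 3. Against pre-treatment limma called 674, RLE factors 22, the filter of 10 counts in every library 17 and edgeR's earlier method 3. For the differences between tissues, library size alone gave 2 members at washout against pre-treatment. That filter gave 1 at washout against post-treatment and 0 against pre-treatment, because F3, with as few as 7 reads in an SM library, was no longer tested.

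Animals paired the libraries, and the fit with no replicate block, which drops the animal, called 2 members and 1420 genes in AT post-treatment, 3 members at washout against post-treatment and 1 at washout against pre-treatment. It called 224 and 41 genes in SM at washout against post- and pre-treatment, and 1 and 0 members in the differences between tissues. Among single members it ended the calls of THBD post-treatment (log2 fold change 0.29, adjusted p = 0.249), SERPINE2 (0.55, adjusted p = 0.181) and PLAUR (-0.77, adjusted p = 0.0880) at washout against post-treatment. SERPIND1 rests on few reads, 3 to 90 per AT library.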
